A study of Homo sapiens with 8 samples.

Results

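The 10 genes described here are known as targets of canonical Wnt signalling, several of them in liver, and were followed in Alexander1 cells: *GLUL*, *TBX3*, *SP5*, *NKD1*, *NOTUM*, *APCDD1*, *BAMBI*, *TNFRSF19*, *MYC* and *CD44*. They were listed by symbol, and all 10 were found by Ensembl identifier among the 58206 genes of the count table. Of these, 6 passed the filter on low counts and were tested, and 4 (*NKD1*, *NOTUM*, *APCDD1* and *TNFRSF19*) had too few reads for a test.

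Alexander1 (ATCC CRL-8024) is an established epithelial line from a human hepatocellular carcinoma. Parental cells, labelled wt (Axin1 -), carry an Axin1 protein that lacks its GSK3-binding region, and the Wnt pathway in them is described by the submitters as always active. Cells labelled Axin1 + are a stable derivative made by VSVG retroviral transfer of Addgene plasmid 24928 and hygromycin B selection of clones, described as carrying full-length Axin1 at a physiological level. The transfer protocol is entered for all 8 samples, and the labels do not say whether the derivative is 1 clone or whether libraries come from separate cultures. P-values therefore measure the spread between libraries, which may be technical. Both lines were grown in the same serum-containing medium, and 4 libraries per line were sequenced. The question addressed here is whether the mRNA of Wnt target genes differed between the lines.

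In canonical Wnt signalling, a scaffold of Axin and APC holds beta-catenin so that the kinase GSK3 can mark it for destruction. When that scaffold fails or is inhibited, beta-catenin enters the nucleus and binds TCF/LEF factors on DNA, and target genes are transcribed. In liver the pathway is active around the central vein, where hepatocytes make glutamine synthetase, the product of *GLUL*. Many targets are themselves brakes on the pathway.

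The sequence that TCF/LEF factors recognise has the core CTTTGA or CTTTGT, and the bases upstream of the members' start sites were searched for both, on either strand. RefSeq start sites (GRCh38.p14) were matched for 6 of the 10 members, with 8 start sites in all, and 250 bases before each were read. *TBX3*, *NKD1*, *NOTUM* and *MYC* had no matched start site and were not searched. Of the 8 windows, only that of *SP5* held a match, and it held 4. It is shown because *SP5* is also the member with the largest decrease. It lies at chr2:170715087-170715336 on the plus strand, written 5′ to 3′ with the matches in capitals (TCAAAG is CTTTGA on the other strand).
SP5: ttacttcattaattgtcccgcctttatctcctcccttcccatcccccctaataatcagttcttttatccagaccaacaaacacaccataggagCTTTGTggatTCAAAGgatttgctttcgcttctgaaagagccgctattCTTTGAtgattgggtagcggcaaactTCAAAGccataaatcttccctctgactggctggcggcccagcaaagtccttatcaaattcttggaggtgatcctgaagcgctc
Counted back from the start site, the matches begin at positions -157, -147, -109 and -83. Among 35116 windows of the same length in the RefSeq table, 22.8% held at least 1 match of either core and 20 windows held 4 or more. A match is a string of letters and not a measured binding site, and the remaining 7 windows lack these letters within 250 bases only.

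The libraries held 11232951 to 15263761 counts in the parental and 12372436 to 26400782 in the Axin1+-labelled group, so that 3 counts corresponded to between 0.108 and 0.267 CPM (counts scaled to a common library total). The first 2 principal components of log2 CPM carried 55.9% and 21.0% of the variance. Axin1+ replicate 1 lay nearest the parental libraries on the first (22.2, against 48.7 to 56.8 for the other Axin1+-labelled libraries), and parental replicate 1 stood apart on the second (61.5, against -30.3 to 25.0 for all others). *AXIN1* itself, the gene the design set out to change, stood at 47.4 to 55.3 CPM in the parental and 37.7 to 48.2 CPM in the Axin1+-labelled libraries (log2 fold change -0.21, SE 0.12, edgeR adjusted p = 0.267). Its mRNA was thus not measurably higher in the libraries labelled Axin1 +, and gene counts do not separate the endogenous from the introduced transcript, so every direction below rests on the labels. Of the 11 hepatocyte-lineage markers all were tested and 2 rose and 2 fell, with summed levels of 27772 to 32264 CPM in the parental and 21990 to 26141 CPM in the Axin1+-labelled libraries. Among all tested genes, 10.4% rose and 8.77% fell. *SERPINA1*, the most abundant marker, fell from a mean of 16130 to 10358 CPM and *TF* from 3114 to 1628 CPM. *FGB* rose from 768 to 3175 CPM and *TTR* from 3.63 to 12.6 CPM, so the sum does not stand for each marker. Of 5 fibroblast, 5 endothelial and 5 leukocyte markers, 2, 1 and 1 were abundant enough to test, and *TEK* and *CD3E* had no count. Summed fibroblast markers stood at 2.67 to 3.15 CPM and 1.18 to 4.59 CPM in the same order. *PDGFRB* among them fell, and it passed the filter on low counts through its parental libraries. *COL1A1*, the other fibroblast marker tested, was not called (log2 fold change 0.81, edgeR adjusted p = 0.308). Leukocyte markers, nearly all of them *LYZ*, stood at 421 to 949 CPM and 672 to 920 CPM. The endothelial sum rose from between 4.58 and 6.77 to between 34.1 and 58.5 CPM through *PECAM1*, while *VWF*, *CDH5* and *KDR* were not abundant enough to test. The part of these markers in the members' values was not tested.

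Of the 6 members tested, *SP5* and *TBX3* were lower and *CD44* was higher in the Axin1+-labelled libraries, while *GLUL*, *BAMBI* and *MYC* did not pass the threshold. A call means an adjusted p under 0.05 in edgeR's quasi-likelihood test with Benjamini-Hochberg adjustment over all 14289 genes tested. By that rule 19.2% of all tested genes were called, 10.4% of them higher and 8.77% lower, against 3 of the 6 tested members (1 higher, 2 lower). *SP5* passed the filter on low counts through its parental libraries and *CD44* through its Axin1+-labelled ones, and no support is drawn from the members' share. The values of the 2 groups did not overlap for *SP5*, *CD44* and *BAMBI*, as was the case for 23.9% of all tested genes. The median log2 fold change of the 6 tested members was -0.19, with 4 below and 2 above 0, beside 0.00 for all tested genes. In bulk RNA, fewer cells that express a gene and less RNA per cell cannot be told apart.

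**Figure D1:**
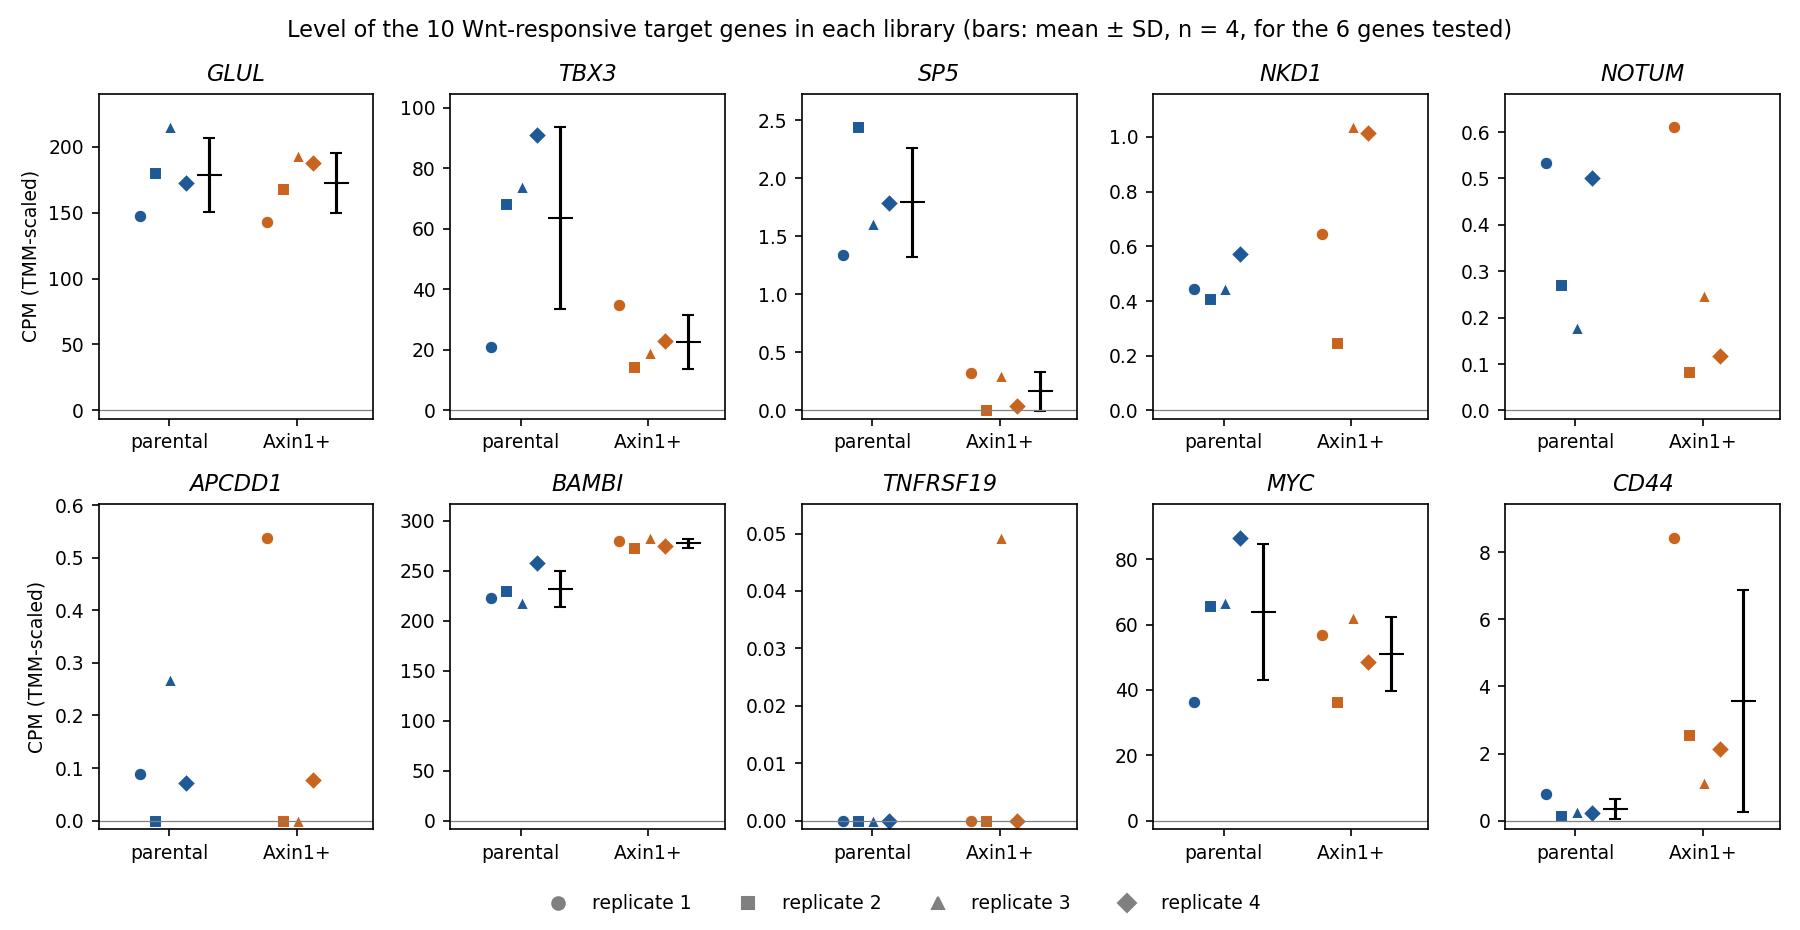
CPM of each of the 10 genes in the 4 parental (blue) and 4 Axin1+-labelled (orange) libraries, on a linear axis that differs between panels. Symbols mark the replicate numbers and black bars the mean ± SD of the 6 genes tested. *SP5* lies between 1.33 and 2.44 CPM in the parental libraries and at 0.323 CPM or below in the others.

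*SP5* encodes a zinc-finger transcription factor of the Sp family that is switched on by beta-catenin in many tissues. It was read 15, 36, 18 and 25 times in parental replicates 1 to 4, and 9, 0, 6 and 1 times in Axin1+ replicates 1 to 4. On the scaled level these counts correspond to 1.33, 2.44, 1.60 and 1.79 CPM, and to 0.323, 0.00, 0.296 and 0.0390 CPM. Each parental library was above each Axin1+-labelled one, although 3 of the latter were deeper than any parental library. *SP5* (ENSG00000204335, chromosome 2, 170715351 to 170718078, plus strand) fell from a mean of 1.79 CPM (SD 0.469) to 0.164 CPM (SD 0.168; n = 4 each). The log2 fold change was -3.27 (SE 0.58, 95% interval -4.54 to -1.99, edgeR adjusted p = 0.0037), or 9.63-fold lower. The call held in all 17 alternative settings under which *SP5* could be tested. With replicate 1 of both lines left out it was -3.94. The 40 tested genes nearest to it on chromosome 2, 20 on each side, had a median log2 fold change of -0.18.

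*TBX3* encodes a T-box transcription factor, a repressor known as a beta-catenin target in liver tumours and around the central vein. Parental replicates 1 to 4 gave 20.8, 68.3, 73.8 and 91.1 CPM, and Axin1+ replicates 1 to 4 gave 35.0, 14.3, 18.8 and 22.9 CPM. The groups overlapped, because parental replicate 1 fell far below the others in its group and inside the Axin1+-labelled range. *TBX3* (ENSG00000135111, chromosome 12, 114670254 to 114684164, minus strand) fell from a mean of 63.5 CPM (SD 30.1) to 22.8 CPM (SD 8.90; n = 4 each). The log2 fold change was -1.47 (SE 0.39, 95% interval -2.34 to -0.61, edgeR adjusted p = 0.0252). The call was lost, with edgeR adjusted p between 0.0550 and 0.0781, when any of parental or Axin1+ replicates 2, 3 and 4 was left out. With replicate 1 of both lines left out the value was -2.04 (edgeR adjusted p = 2.6e-06). Its 40 chromosomal neighbours had a median of 0.01.

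*CD44* encodes a cell-surface receptor for hyaluronan and moved in the direction opposite to *SP5* and *TBX3*. It had 9, 2, 3 and 3 counts in the parental libraries and 235, 31, 23 and 55 in the Axin1+-labelled ones (replicates 1 to 4). The levels were 0.801, 0.135, 0.267 and 0.215 CPM, and 8.43, 2.56, 1.13 and 2.15 CPM. The groups did not overlap, and replicate 1 was the highest library in both. *CD44* (ENSG00000026508, chromosome 11, 35138870 to 35232402, plus strand) rose from a mean of 0.355 CPM (SD 0.302) to 3.57 CPM (SD 3.30; n = 4 each). The log2 fold change was 3.38 (SE 0.73, 95% interval 1.78 to 4.99, edgeR adjusted p = 0.0102). Without Axin1+ replicate 1 it was 2.48, without parental replicate 1 it was 4.12, and without both it was 3.20, each past the threshold (edgeR adjusted p between 0.00038 and 0.0106). Its exons share 84 bases with *CD44-AS1* on the opposite strand, a gene with 0 counts in all libraries. The 40 neighbours had a median of 0.17.

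Among genes that act with CD44, 5 of 9 on a list of its partners were tested and 0 were called by edgeR, with a median log2 fold change of 0.07. Of the 5, 1 gene had an unadjusted p under 0.05 (33.5% of all tested genes did), and DESeq2 called 1 (3504 of all 14289 genes). Over all tested genes edgeR called 19.2%, and nothing particular to the list is read from these counts. *HAS2*, which makes hyaluronan, had no count, and *EZR*, which links CD44 to actin, averaged 391 CPM (SD 39.2) and 411 CPM (SD 29.9; n = 4 each, log2 fold change 0.07, edgeR adjusted p = 0.708). *RDX*, on the same list, had a log2 fold change of -0.35 (edgeR adjusted p = 0.0716). Its groups did not overlap, as was the case for 23.9% of all tested genes. *MSN*, also listed, was at 0.14 (edgeR adjusted p = 0.460). *ESRP1*, a splicing factor that favours the longer CD44 forms in epithelium, was at or under the limit of 3 counts in each library. *ESRP2*, on the same list, was expressed, at a mean of 25.9 CPM (SD 3.58) in the parental and 21.0 CPM (SD 2.69) in the Axin1+-labelled libraries. Its log2 fold change was -0.31 (edgeR adjusted p = 0.191). The table counts whole genes, so CD44 splice forms were not analysed here.

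*GLUL*, the glutamine synthetase gene and the usual marker of active beta-catenin in liver, was abundant in both groups and no difference between them passed the threshold. The parental libraries (replicates 1 to 4) gave 147, 180, 215 and 172 CPM, and the Axin1+-labelled ones 143, 168, 193 and 188 CPM. The groups overlapped over most of their ranges, and replicate 1 was the lowest library in both. The means were 179 CPM ± 27.8 and 173 CPM ± 22.7 (SD, n = 4 each). The log2 fold change of *GLUL* (ENSG00000135821, chromosome 1, 182381704 to 182392206, minus strand) was -0.05 (SE 0.15, edgeR adjusted p = 0.847). Its 95% interval of -0.37 to 0.28 excludes a change as large as that of *TBX3*, and the sign turned to 0.03 with total counts only, 0.05 without parental replicate 3 and 0.03 without Axin1+ replicate 1. The 4 annotated *GLUL* pseudogenes in the table had 0 counts.

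*MYC*, a transcription factor that drives growth and ribosome production, was measured at 36.3, 65.7, 66.7 and 86.6 CPM across the parental replicates. Across Axin1+ replicates 1 to 4 it was at 56.8, 36.2, 62.1 and 48.5 CPM, so the groups overlapped. The means were 63.8 CPM ± 20.7 and 50.9 CPM ± 11.3 (SD, n = 4 each). The log2 fold change of *MYC* (ENSG00000136997, chromosome 8, 127735434 to 127741434, plus strand) was -0.32 (SE 0.24, 95% interval -0.86 to 0.21, edgeR adjusted p = 0.379). As with *TBX3*, the lowest library within each group was parental replicate 1 and Axin1+ replicate 2. With replicate 1 of both lines left out, *MYC* passed the threshold at -0.57 (edgeR adjusted p = 0.0281), and without parental replicate 1 alone it was -0.52 (edgeR adjusted p = 0.0525). It was -0.14 without parental replicate 4 (edgeR adjusted p = 0.719) and -0.19 without Axin1+ replicate 2 (edgeR adjusted p = 0.627).

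Of 18 partners and known targets of MYC, all were tested, 4 were lower and 1 was higher, with a median log2 fold change of -0.14. The 5 calls among 18 genes stand beside 19.2% called among all tested genes, and nothing particular to the list is read from them. *CDK4*, a cell-cycle kinase, fell from a mean of 278 CPM (SD 11.1) to 181 CPM (SD 25.4; n = 4 each, log2 fold change -0.62, edgeR adjusted p = 0.0079). *NOP56*, a nucleolar protein of ribosome assembly, fell by 0.61 on the log2 scale, *CAD*, an enzyme of pyrimidine synthesis, by 0.75, and *SRM*, spermidine synthase, by 0.61 (edgeR adjusted p between 0.0084 and 0.0296). *MAX*, the protein MYC pairs with to bind DNA, rose by 0.43 (edgeR adjusted p = 0.0243). The other 13, among them *NPM1* (0.03) and *LDHA* (-0.27), did not pass.

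*BAMBI* encodes a membrane protein that resembles a TGF-beta family receptor without a kinase and dampens that pathway. The parental libraries gave 223, 230, 218 and 258 CPM and the Axin1+-labelled libraries 280, 273, 283 and 275 CPM (replicates 1 to 4). The 4 Axin1+-labelled values lay close together and above every parental one. The means of *BAMBI* (ENSG00000095739, chromosome 10, 28677342 to 28682939, plus strand) were 232 CPM ± 18.0 and 278 CPM ± 4.61 (SD, n = 4 each), a ratio of 1.20. The log2 fold change was 0.26 (SE 0.11, 95% interval 0.02 to 0.50), and with an edgeR adjusted p of 0.124 it was not called. The DESeq2 Wald test placed it just past the threshold, at an adjusted p of 0.0498, and it was the only one of the 18 alternative analyses that did. On simulated data 15.9% of the DESeq2 calls were false, against 3.62% of the edgeR calls. Only 189 of 14084 genes were changed there, a far smaller share than was called in the measured data. The simulated shares therefore do not decide whether the DESeq2 call of *BAMBI* is false. Of 8 BMP and TGF-beta response genes, all tested, 0 were called by edgeR, 0 had an unadjusted p under 0.05 and DESeq2 called 0. Over all 14289 tested genes, edgeR called 19.2%, 33.5% had an unadjusted p under 0.05 and DESeq2 called 3504. With 8 genes, nothing particular to the list is read from these counts. Their median log2 fold change was -0.27, with *ID1* at -0.23 and *SMAD7* at -0.13.

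**Figure D2:**
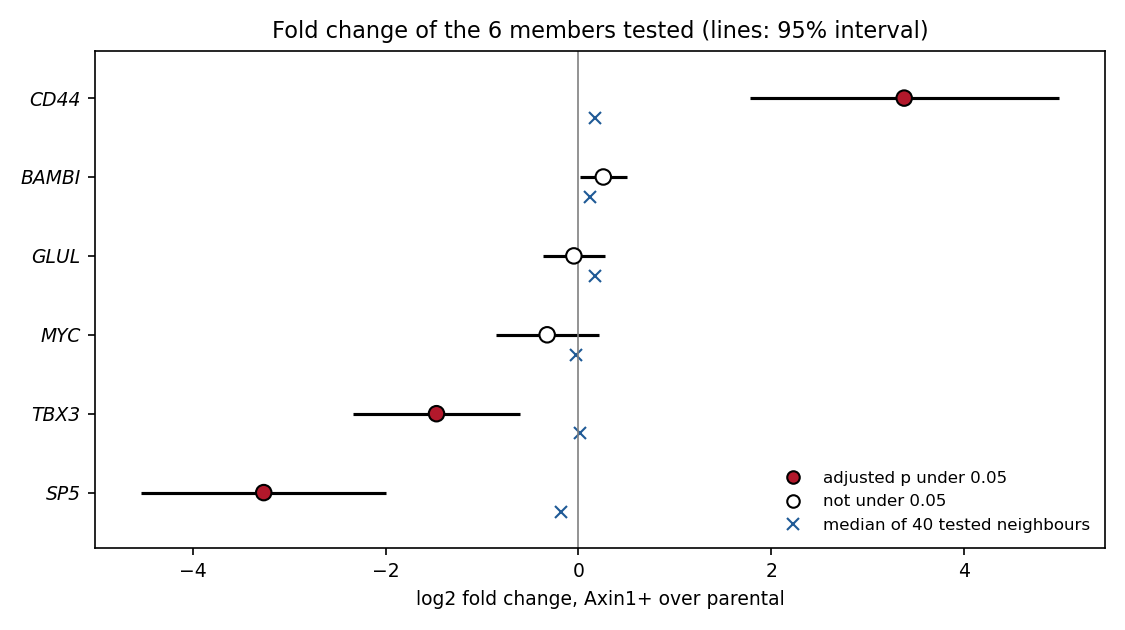
Log2 fold change of the 6 tested members, Axin1+-labelled over parental, with 95% intervals (edgeR). Filled circles passed an adjusted p of 0.05 and crosses give the median of the 40 tested chromosomal neighbours, which lies between -0.18 and 0.17 for all 6.

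The secreted and intracellular brakes on the pathway among the members had few reads in either line. *NKD1*, whose product binds Dishevelled and blocks the signal inside the cell, had 5, 6, 5 and 8 counts in parental replicates 1 to 4 and 18, 3, 21 and 26 in Axin1+ replicates 1 to 4. Its levels overlapped, at 0.406 to 0.573 CPM and 0.248 to 1.03 CPM, with Axin1+ replicate 2 below all other libraries. Over pooled counts the ratio, Axin1+-labelled over parental, was 1.69, with an exact 95% interval of 1.05 to 2.81 that covers counting error only and not the spread between libraries. In the edgeR fit without an expression filter the log2 fold change of *NKD1* was 0.72 (adjusted p = 0.486). Its exons share 67 bases with an antisense gene that had 1 count in all.

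*NOTUM* encodes a secreted enzyme that removes the lipid from Wnt ligands. It had 6, 4, 2 and 7 counts in the parental and 17, 1, 5 and 3 in the Axin1+-labelled libraries (replicates 1 to 4). The levels, 0.178 to 0.534 CPM and 0.0826 to 0.610 CPM, overlapped, and the pooled ratio was 0.816 (exact 95% interval 0.434 to 1.56, counting error only). Without an expression filter edgeR gave a log2 fold change of -0.36 (adjusted p = 0.780).

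*APCDD1*, a membrane protein that holds Wnt at the cell surface, had 1, 0, 3 and 1 counts in the parental and 15, 0, 0 and 2 in the Axin1+-labelled libraries. In Axin1+ replicate 1 its 15 counts correspond to 0.538 CPM, and no other library exceeded 3 counts. The pooled ratio of 2.03 (exact 95% interval 0.718 to 7.03, counting error only) rests on that library. *TNFRSF19*, a receptor of the tumour necrosis factor family also called TROY, had no count in any library but Axin1+ replicate 3, which had 1. At 3 counts per library, its level was below 0.267 CPM in each library, and no difference was detectable at this depth.

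Per length, the members spanned the range of expression in these cells. Scaled to kilobases of annotated exon (RPKM, from the union of GENCODE 29 exons), *BAMBI* led at 100 RPKM ± 7.79 in the parental libraries, above 96.8% of tested genes. *MYC* (21.3 RPKM ± 6.90) and *GLUL* (19.8 RPKM ± 3.08) followed, with ranges of 12.1 to 28.9 and 16.3 to 23.8 that overlapped. *TBX3* came next at 10.7 RPKM ± 5.05, its highest library, at 15.3, reaching above the lowest of *MYC*. *SP5* stood at 0.870 RPKM ± 0.228, above 18.1% of tested genes, and *NOTUM* at 0.123 RPKM ± 0.0576. *CD44* (0.0354), *NKD1* (0.0268) and *APCDD1* (0.0180) had overlapping RPKM ranges, that of *CD44* also reaching into that of *NOTUM*, and *TNFRSF19* was at 0. In the Axin1+-labelled libraries *BAMBI* again led, at 120 RPKM ± 1.99, and *GLUL* (19.1) and *MYC* (17.0) overlapped. There *TBX3* was at 3.82 RPKM ± 1.50, below all values of *MYC*, and *CD44*, at 0.357 RPKM ± 0.330, stood above *SP5*, at 0.0798 RPKM ± 0.0817, though their ranges of 0.113 to 0.843 and 0.00 to 0.157 overlapped.

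The members did not single out the same library. Axin1+ replicate 1, which lay nearest the parental libraries on the first component, was the highest of its group for *TBX3*, *SP5*, *NOTUM*, *APCDD1* and *CD44*. For *TBX3* and *SP5* this was on the parental side of its group, and for *CD44* it was on the far side. Axin1+ replicate 2, the shallowest of its group with 12372436 counts, was the lowest for *TBX3*, *SP5*, *NKD1*, *NOTUM*, *BAMBI* and *MYC*. Parental replicate 1 was the lowest of its group for *GLUL*, *TBX3*, *SP5* and *MYC*. The 3 calls held with both replicate 1 libraries left out, and *MYC* joined them (then 1 higher and 3 lower).

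**Figure D3:**
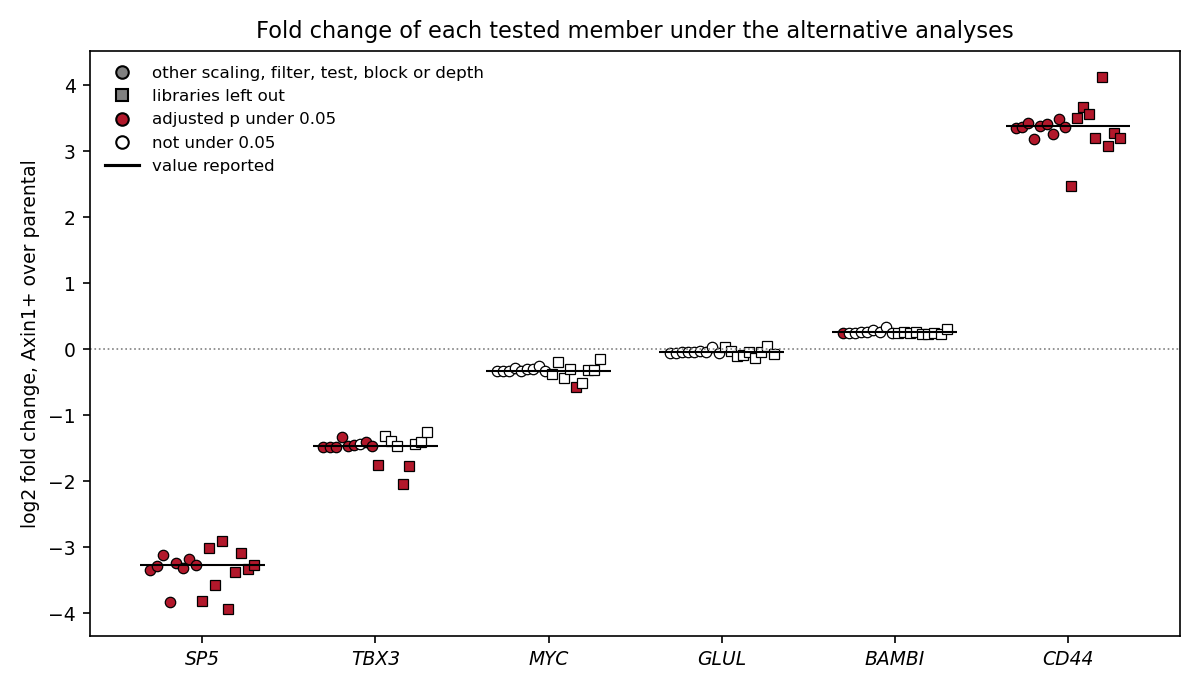
Log2 fold change of each tested member under the alternative analyses: circles for another scaling, filter, test, block or depth, squares for libraries left out. Filled symbols passed an adjusted p of 0.05. *SP5* and *CD44* are filled throughout, *TBX3* is filled in 11 of 18 analyses, and *GLUL* lies on both sides of 0.

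Genes whose levels followed a member most closely were sought among tested genes with a mean of at least 1 CPM, by Pearson's r of log2 CPM over the 8 libraries, as a description without a test, since both lines and shared library effects enter it. The genes named have the highest r among all those searched, so high values can arise by selection alone. *TBX3* was most like *BORCS5* (r = 0.989) and *PHYHIPL* (r = 0.988), the latter at 22.1 CPM in the parental and 8.16 CPM in the Axin1+-labelled libraries on average. *SP5* was most like *FGFR3* (r = 0.984), a growth factor receptor gene at 287 and 222 CPM, and *CBARP* (r = 0.984). The log2 fold change of *FGFR3* was -0.37, against -3.27 for *SP5*, which had 9 counts or fewer in each Axin1+-labelled library. *MYC* was most like *ENTREP3* (r = 0.989) and *FASN* (r = 0.984), the fatty acid synthase gene, at 320 and 256 CPM. *CD44* was most like *ZNFX1* (r = 0.980) and *MTMR3* (r = 0.976), *BAMBI* like *CCDC144NL-AS1* and *AKAP17A* (r = 0.990 each), and *GLUL* like *MOCOS* (r = 0.964) and *ZNF607* (r = 0.928).

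Other Wnt target genes, on a list of 26, also held members that fell and members that rose. Of 20 tested, 6 were lower and 4 higher, with a median log2 fold change of 0.04, beside 8.77% lower and 10.4% higher among all tested genes. Among those called, *LGR5* and *ASCL2* passed the filter on low counts through their parental libraries. *EPHB3* and *MMP7* passed it through their Axin1+-labelled ones, and no support is drawn from the list's share or median. The stem-cell receptor gene *LGR5* fell from 4.81, 13.9, 15.5 and 18.5 CPM to 0.646, 0.00, 0.0986 and 0.234 CPM (replicates 1 to 4). Its log2 fold change was -5.49 (SE 0.62, edgeR adjusted p = 0.00029). *LEF1*, one of the TCF/LEF factors, fell by 1.22 and *ASCL2*, a stem-cell transcription factor, by 2.06 on the log2 scale. *FOSL1*, which encodes an AP-1 subunit, fell with a log2 fold change of -2.28. *EPHB3*, an ephrin receptor gene, rose by 1.46 and *FZD7*, a Wnt receptor gene, by 0.99 (edgeR adjusted p between 0.0127 and 0.0271 for these 5). *AXIN2*, the feedback gene used most often to read the pathway, averaged 3.73 CPM (SD 1.55) and 2.99 CPM (SD 0.9503; n = 4 each, log2 fold change -0.31, edgeR adjusted p = 0.598). *TCF7*, which encodes another TCF/LEF factor, was at 0.24 (edgeR adjusted p = 0.387). Leaving out single libraries reduced the 10 calls to 4 without parental replicate 2 or Axin1+ replicates 3 or 4, to 5 without parental replicate 4, and to 6 without parental replicate 3 or Axin1+ replicate 1. The higher calls went from 4 to 0 without parental replicate 2 or 4 and to 1 without parental replicate 3 or Axin1+ replicates 1, 3 or 4, while 3 to 5 lower calls were made in these 6 fits. Without both replicate 1 libraries there were 11 calls, 5 higher and 6 lower.

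Within this list, RefSeq windows were matched for 14 genes, and 4 of these genes held either core. Of their 19 windows, 5 held either core, beside 22.8% of all 35116 windows, of which 11.2% held CTTTGA. Nothing particular to the list is read from these counts. *DKK1* and *MMP7* held CTTTGA, and *RNF43* and *TCF7* held CTTTGT only. *DKK1* and *MMP7* were singled out after their values were seen, to set beside *SP5* genes that hold CTTTGA as well. The stretches below run from position -159 to -61 of *DKK1* (chr10:52314122-52314220, plus strand) and from -204 to -93 of *MMP7* (chr11:102530840-102530951, minus strand), 5′ to 3′ with matches in capitals.
DKK1: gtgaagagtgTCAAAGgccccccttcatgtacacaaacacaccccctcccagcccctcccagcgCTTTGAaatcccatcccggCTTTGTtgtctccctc
MMP7: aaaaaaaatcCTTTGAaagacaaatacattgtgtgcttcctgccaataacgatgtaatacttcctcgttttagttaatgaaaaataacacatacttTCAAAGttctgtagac
*DKK1*, a secreted Wnt antagonist, had 0 counts in all 8 libraries. *MMP7*, a matrix protease, rose from a mean of 1.41 CPM (SD 1.10) to 5.56 CPM (SD 4.46; n = 4 each, edgeR adjusted p = 0.0357), with 12.2 CPM in Axin1+ replicate 1 and 3.59 CPM or less in the other libraries of its group. The 3 genes with CTTTGA in this window thus included 1 that fell, 1 that rose and 1 without reads. With CTTTGT only, *RNF43* (log2 fold change 0.39, edgeR adjusted p = 0.0546) and *TCF7* (0.24, edgeR adjusted p = 0.387) were not called.

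Liver zonation genes were set beside *GLUL*, whose mRNA in liver marks the cells around the central vein. Of 12 pericentral genes, 5 could be tested, and 3 were higher and 1 was lower (median log2 fold change 0.80), beside 10.4% higher and 8.77% lower among all tested genes. The list holds none of the members or other Wnt target genes. *GLUL* (-0.05) and *TBX3* (-1.47), both placed around the central vein above, therefore do not enter its median. *SLC1A2*, a glutamate transporter gene, rose from a mean of 0.388 CPM (SD 0.105) to 3.05 CPM (SD 0.898; n = 4 each, log2 fold change 2.95, edgeR adjusted p = 0.00045). *RGN*, which encodes regucalcin, rose by 1.34 and *OAT*, ornithine aminotransferase, by 0.80, whereas *CYP2E1*, a cytochrome P450 of the pericentral zone, fell by 1.91 on the log2 scale (edgeR adjusted p between 0.0101 and 0.0426). Of 13 periportal genes, 9 were tested, and 4 were lower and 2 higher (median -0.46), beside the same shares. *CPS1*, the first enzyme of the urea cycle, fell from a mean of 2939 CPM (SD 303) to 1844 CPM (SD 183; n = 4 each, log2 fold change -0.67, edgeR adjusted p = 0.0097). *ARG1* (-2.91), *ASL* (-0.41) and *G6PC1* (-1.69) fell as well, and *CDH1* (0.50) and *SDS* (2.06) rose (edgeR adjusted p between 0.0134 and 0.0392). *SLC1A2* and *SDS* passed the filter on low counts through their Axin1+-labelled libraries, and *CYP2E1* and *ARG1* through their parental ones. No support is drawn from the shares or medians of the zonation lists.

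**Figure D4:**
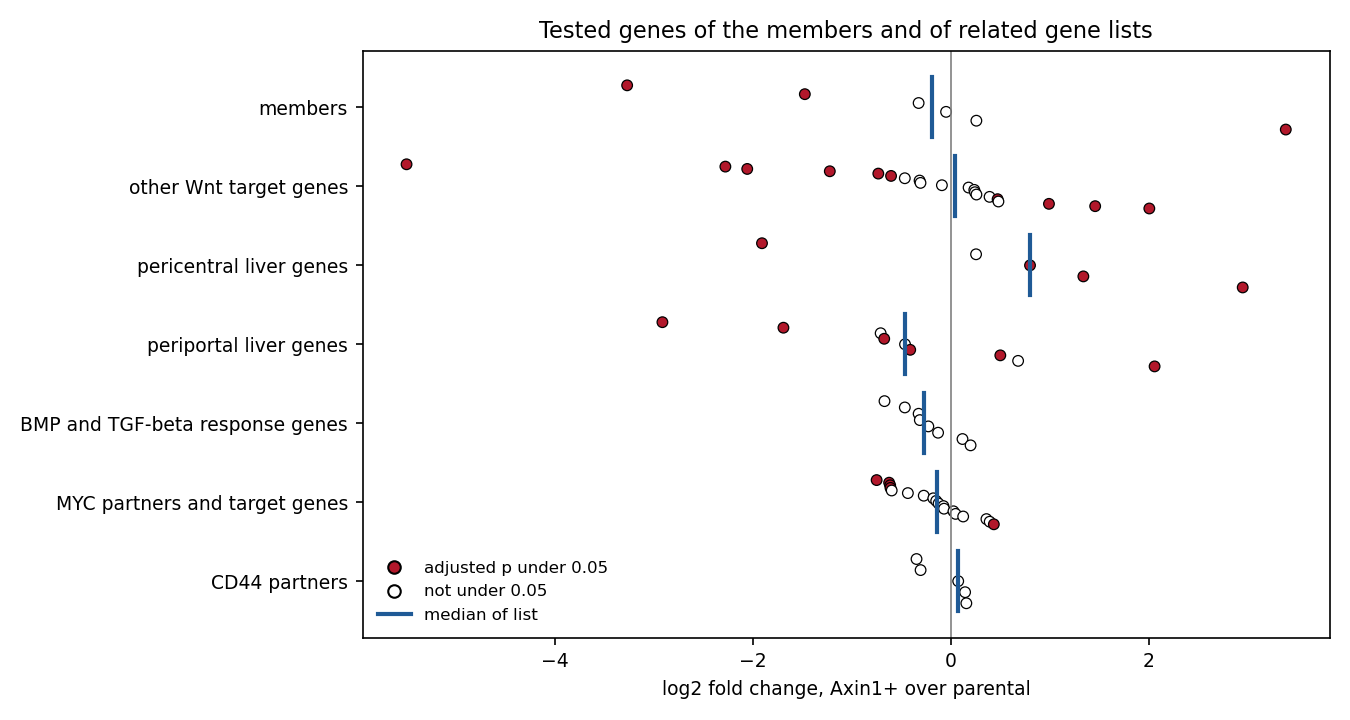
Log2 fold change, Axin1+-labelled over parental, of the tested members and of the tested genes of 6 related lists, each point a gene. Filled points passed an adjusted p of 0.05 and blue lines give the medians, which run from -0.46 for periportal to 0.80 for pericentral genes. The pericentral list leaves out *GLUL* and *TBX3*, which are shown among the members.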

How the data were processed

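Total RNA from 4 parental and 4 Axin1+-labelled samples was sequenced from mRNA libraries, per the labels' protocols. The submitters' processing notes name bcl2fastq, fastp 0.23.1, STAR 2.7.4 and GRCh38. The annotation, the counting program and the use of strand are not given in the sources used here. The authors deposited raw counts per gene, which were used as they stand; 0 columns belonged to no sample. Symbols, positions and exon lengths come from a symbol table (57495 of 58206 identifiers matched) and GENCODE release 29 on GRCh38 (57943 matched).

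The test was edgeR's quasi-likelihood F test (edgeR 4.0.16, R 4.3.3; filterByExpr with a minimum count of 10 and total of 15, TMM scaling, glmQLFit and glmQLFTest, no covariates, two-sided, Benjamini-Hochberg adjustment over 14289 genes). Each standard error is the size of the log2 fold change divided by √F. Log2 CPM used a prior count of 2. Pooled ratios of members below the filter carry exact (Clopper-Pearson) intervals. The labels give no batch. Pairs of libraries of 1 group differed by more than counting noise (chi-square per degree of freedom 8.59 to 82.9).

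Members and gene lists were chosen with earlier results of these data known. All 10 members are named, with *AXIN1*, *AXIN2*, *LGR5*, *LEF1*, *TCF7* and, from each list, all called genes, or the 6 with the smallest p where there were more than 6. Genes added to show a level or a sequence (*EZR*, *RDX*, *MSN*, *HAS2*, *ESRP1*, *ESRP2*, *NPM1*, *LDHA*, *ID1*, *SMAD7*, *DKK1*, *MMP7*, *RNF43*) were chosen after their values were seen. Alternatives were other scalings (DESeq2 1.42.0 size factors, upper quartile, total counts), filters, tests (DESeq2, limma-voom with limma 3.58.1), a replicate block, thinning and leaving out libraries; leaving out replicate 1 of both lines was added after seeing the data. The fit was tested on data simulated for this comparison (14084 genes, 189 of them changed): 97.7% of 4-fold and 46.5% of 2-fold changes were recovered, with 3.62% false calls. With DESeq2 15.9% of the calls on these data were false. Counts were simulated independently, from dispersions estimated by edgeR, with no library standing apart as replicate 1 did. The share of genes changed was far smaller than the 19.2% that edgeR called in the measured data. The simulated shares of recovered changes and false calls need not hold for the measured data.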

Additional observations from a re-analysis of the deposited data

Results flagged for a closer look

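*APCDD1* in the Axin1+-labelled group held a library far from the others: 0.538 CPM (15 counts) in Axin1+ replicate 1, against 0.00 to 0.0781 CPM in the other 3. The gap was 0.855 of the group's range, above Dixon's 95% critical value. It was 1 of 17 groups of 4 values examined, and chance marks about 1 group in 20.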

How the results depend on the processing

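*SP5* and *CD44* kept their direction and their call in every alternative analysis that gave a value (17 and 18); with a mean of at least 1 CPM *SP5* was not tested. *TBX3* kept its direction and lost its call in 7 of 18, those without any of replicates 2, 3 and 4 of either line and with the replicate block. *GLUL* turned to 0.027 with total counts only, to 0.048 without parental replicate 3 and to 0.033 without Axin1+ replicate 1, and ranged from -0.13 to 0.048 with single libraries left out, never called. The number of members called ranged from 2 to 3 with single libraries left out and was 1 at an adjusted p under 0.01. Among other Wnt targets it ranged from 4 to 10 and was 1 at that threshold. Among all genes, 2738 were called, 1394 to 3523 with single libraries left out (1394 without Axin1+ replicate 4, 1508 without parental replicate 2, 1531 without Axin1+ replicate 3), 4623 without replicate 1 of both lines and 964 at an adjusted p under 0.01; the cause of these shifts was not tested. With total counts only, 1724 genes were higher and 868 lower, against 1485 and 1253.

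Replicate numbers did not pair the libraries: deviations of same-numbered libraries correlated between -0.06 and 0.23, and 1 of 4 parental libraries correlated best with its own number. With the replicate block 2033 genes, 2 members and 8 other Wnt targets were called, and *TBX3* had an adjusted p of 0.0846. Depth limits *NKD1*, *NOTUM*, *APCDD1* and *TNFRSF19*, for which no more than 26 counts were read in any library.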
